A study of Saccharomyces cerevisiae x Saccharomyces kudriavzevii and Saccharomyces cerevisiae with 12 samples.

Results

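The genes studied here make and break the esters that give wine its fruity aroma. They are YOR377W (ATF1), YGR177C (ATF2), YPL095C (EEB1), YBR177C (EHT1), YMR210W and YOR126C (IAH1), 6 of the 6178 ORFs in the deposited table, selected by systematic name. All 6 had a value on each of the 12 arrays. From the systematic names, ATF1 and IAH1 lie on the right arm of chromosome XV, ATF2 on the right arm of VII, EEB1 on the left arm of XVI, EHT1 on the right arm of II and YMR210W on the right arm of XIII. The genome build of the arrayed ORFs is not given in the sources used here.

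Acetate esters such as isoamyl acetate are formed from acetyl-CoA and an alcohol by the alcohol acetyltransferases encoded by ATF1 and ATF2. Ethyl esters of medium-chain fatty acids are formed from acyl-CoA and ethanol by the acyltransferases encoded by EEB1 and EHT1, and YMR210W encodes a related protein. The esterase encoded by IAH1 breaks isoamyl acetate and other acetate esters down again. The balance of synthesis and hydrolysis sets how much ester remains in a wine, and in S. cerevisiae the transcription of ATF1 is known to be repressed by oxygen and by unsaturated fatty acids.

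Two-colour arrays of PCR-amplified ORFs of the laboratory strain S288c compared the hybrids VIN7 and Lalvin W27, both S. cerevisiae × S. kudriavzevii, with the wine strain S. cerevisiae Lalvin T73. The groups were VIN7 at 12 °C, W27 at 12 °C, VIN7 at 28 °C and W27 at 28 °C, each with 3 arrays (replicates A, B and C). On each array the control was T73 fermented at the same temperature, and all cells came from Tempranillo must at the beginning of stationary phase. The labels call the arrays biological replicates, whereas the methods name 2 independent fermentations and 3 hybridizations, so the spread between arrays may be partly technical. Both hybrids are allotriploid, and each is represented by 1 strain. According to the study, VIN7 has lost the S. kudriavzevii allele of ATF2, whereas the other genes keep an allele of each parent in both hybrids. The ratio pools the alleles of a gene. The study hybridized under heterologous conditions meant to let S. kudriavzevii cDNA bind, and how well it bound to the arrayed S288c sequences is unknown here. By RT-PCR the study found the S. kudriavzevii allele of ATF2 more expressed than that of S. cerevisiae in W27. For EEB1 the S. cerevisiae allele was the more expressed in both hybrids.

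The measure is the log2 ratio of hybrid over T73, so that 1 is a level 2-fold higher in the hybrid and -1 a level 2-fold lower. The hybrids carried Cy3 and T73 carried Cy5 on all 12 arrays without a dye swap, so strain and dye cannot be told apart. The direction of the deposited ratio is not stated beside the values. The dyes point to T73 over hybrid, as do the directions that the paper states for some ORFs, ester genes among them, so every value is given here with its sign turned. The direction of these genes against T73 is therefore not independent evidence. Whichever way the ratio runs, EEB1 and ATF2 lay on opposite sides of T73 on 6 of 6 arrays at 28 °C (on 3 of 6 at 12 °C). This pair was described with earlier results of these data known. The share of all ORF pairs that do so was not computed, so this is no independent evidence either. For the W27 arrays titled 28 °C the labels' source names say 12 °C, and the titles and descriptions were followed.

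Arrays held values for 5815 to 6178 ORFs, with an SD across ORFs of 0.60 to 1.59 on the log2 scale. Arrays of the same group correlated across ORFs with a Pearson r between 0.06 and 0.59. Replicate C of VIN7 at 28 °C stood apart. It ran against 4 of the 6 arrays from 12 °C, with r of -0.70 to -0.38, and of the 66 pairs of arrays these were the only 4 with an r under -0.3. With replicates A and B of its own group its r was 0.06 each as deposited and -0.06 each when turned, so its own group did not settle its sign. With replicates A, B and C of W27 at 28 °C its r was -0.22, -0.06 and -0.26 as deposited. With replicate A of W27 at 12 °C it was -0.16, and with replicate C of VIN7 at 12 °C 0.10. The sign of this array is therefore unsettled, it is called the unsettled VIN7 array, and each result that rests on it is also given with the array turned (all its values multiplied by -1). The words as deposited mean here that this array was not turned by itself, after all arrays had been given as hybrid over T73.

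At 28 °C, ATF2 and EHT1 lay above T73 and EEB1 lay below T73 by the 2-fold rule in both hybrids, while ATF1 and IAH1 stayed inside it. With the unsettled VIN7 array turned, EHT1 in VIN7 was no longer outside it (1.73-fold), and ATF2 and EEB1 in VIN7 also lost their place without replicate A or without replicate B, as did EHT1 in W27 without replicate B. At 12 °C only YMR210W in W27 lay outside it. The 2-fold rule follows the methods of the study: a value on at least 2 arrays and a median log2 ratio of at least 1 or at most -1. It is not a test. In the test used here (limma, 1 model with 4 group means for all ORFs, Benjamini-Hochberg adjustment), none of the 6 genes passed an adjusted p of 0.05 in any group or comparison as deposited.

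**Figure D1:**
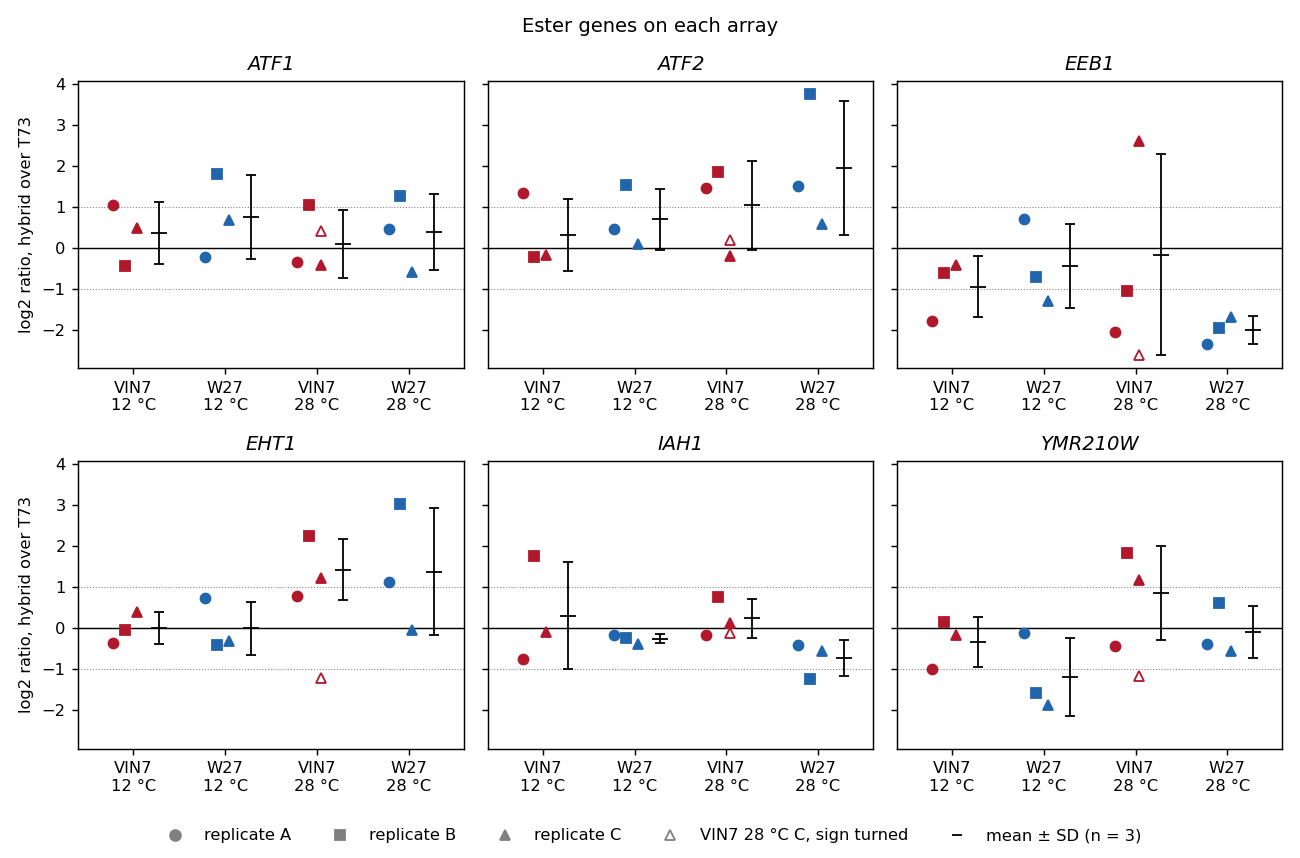
Log2 ratio of hybrid over T73 for each ester gene on each array (vertical axis), by hybrid and temperature. Red marks VIN7 and blue W27, symbols mark replicates A, B and C, the open triangle is the unsettled VIN7 array (replicate C at 28 °C) turned, bars give mean ± SD (n = 3) as deposited, the solid line is T73 and the dotted lines are 2-fold. The 3 W27 arrays at 28 °C place EEB1 between -2.36 and -1.70, whereas EEB1 in VIN7 at 28 °C spans -2.06 to 2.61 where the turned array would be at -2.61.

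ATF2, the acetyltransferase gene of which VIN7 holds S. cerevisiae alleles only, was above T73 on most arrays at 28 °C. At 12 °C its log2 ratios were 1.34, -0.23 and -0.17 in VIN7 and 0.46, 1.53 and 0.08 in W27 (replicates A, B and C). At 28 °C they were 1.46, 1.84 and -0.20 in VIN7 and 1.498, 3.75 and 0.58 in W27. The unsettled VIN7 array was the only one at 28 °C below T73, and it lies above T73 once turned. The hybrids overlapped at 12 °C and at 28 °C, also with the array turned. The median at 28 °C was 2.76-fold above T73 in VIN7, also with the array turned, and 2.82-fold in W27. The mean was 1.04 ± 1.09 in VIN7 (SD, n = 3) and 1.94 ± 1.63 in W27. In rank, ATF2 stood at percentiles 97.8, 87.6 and 39.7 of the ORFs on the VIN7 arrays at 28 °C and at 95, 99.1 and 80.7 on the W27 arrays.

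ATF1, the gene of the main acetyltransferase for isoamyl acetate, had values on both sides of T73 in every group. At 12 °C its log2 ratios were 1.05, -0.46 and 0.49 in VIN7 and -0.24, 1.79 and 0.69 in W27. At 28 °C they were -0.36, 1.04 and -0.42 in VIN7 and 0.47, 1.27 and -0.59 in W27. The groups overlapped throughout, and no group median reached 2-fold. ATF1 was above T73 on 7 of 12 arrays, or on 8 with the unsettled array turned. The means lay between 0.09 ± 0.83 in VIN7 at 28 °C (0.37 with the array turned) and 0.75 ± 1.02 in W27 at 12 °C (SD, n = 3 each).

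EEB1, which encodes an acyltransferase for medium-chain ethyl esters, was below T73 on most arrays. At 12 °C its log2 ratios were -1.80, -0.62 and -0.42 in VIN7 and 0.70, -0.73 and -1.29 in W27. At 28 °C they were -2.06, -1.05 and 2.61 in VIN7 and -2.36, -1.96 and -1.70 in W27. EEB1 was below T73 on 10 of 12 arrays, or on 11 with the unsettled array turned, and the exceptions were replicate A of W27 at 12 °C and the unsettled VIN7 array. The W27 arrays at 28 °C lay closest together, with a mean of -2.01 ± 0.34 (SD, n = 3) and a median 3.89-fold below T73. In VIN7 at 28 °C the mean was -0.17 ± 2.46 and the median 2.07-fold below T73 as deposited, against a mean of -1.91 and a median 4.17-fold below T73 with the array turned. On the W27 arrays at 28 °C, EEB1 ranked at percentiles 1.06, 2.20 and 2.31, among the lowest ORFs of each array. On the VIN7 arrays at 28 °C it ranked at percentiles 0.520, 12.5 and 95.5, so that on replicate C it lay at the opposite end.

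EHT1, the other acyltransferase gene for ethyl esters, lay near T73 at 12 °C and mostly above it at 28 °C. At 12 °C its log2 ratios were -0.38, -0.05 and 0.40 in VIN7 and 0.74, -0.43 and -0.33 in W27. At 28 °C they were 0.79, 2.25 and 1.23 in VIN7 and 1.13, 3.04 and -0.04 in W27. All 3 VIN7 arrays at 28 °C exceeded all 3 at 12 °C as deposited, which no longer holds when the unsettled array is turned to -1.23, and in W27 the temperatures overlapped. The median at 28 °C was 2.35-fold above T73 in VIN7 (1.73-fold with the array turned, inside the 2-fold rule) and 2.19-fold in W27. The mean at 12 °C was -0.01 ± 0.39 in VIN7 and -0.01 ± 0.65 in W27, against 1.42 ± 0.75 in VIN7 (0.60 with the array turned) and 1.38 ± 1.56 in W27 at 28 °C (SD, n = 3 each).

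YMR210W, which encodes the relative of the ethyl ester acyltransferases, was below T73 on 5 of the 6 arrays at 12 °C. At 12 °C its log2 ratios were -1.01, 0.16 and -0.17 in VIN7 and -0.12, -1.60 and -1.89 in W27. At 28 °C they were -0.43, 1.82 and 1.17 in VIN7 and -0.39, 0.62 and -0.55 in W27. Both hybrids had arrays close to T73 at 12 °C, and replicates B and C of W27 stood lower than all VIN7 arrays. The W27 median at 12 °C was 3.02-fold below T73, and without its replicate C it no longer passed the 2-fold rule. In VIN7 at 28 °C the median was 2.24-fold above T73 as deposited and 1.35-fold below T73 with the unsettled array turned.

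IAH1, the gene of the hydrolase for isoamyl acetate, stayed inside the 2-fold rule in each group. At 12 °C its log2 ratios were -0.76, 1.76 and -0.09 in VIN7 and -0.16, -0.24 and -0.38 in W27. At 28 °C they were -0.17, 0.75 and 0.12 in VIN7 and -0.41, -1.24 and -0.56 in W27. All 6 W27 arrays lay below T73, and at 28 °C each VIN7 array lay above each W27 array, also with the unsettled array turned to -0.12. The mean in W27 was -0.26 ± 0.11 at 12 °C and -0.74 ± 0.44 at 28 °C (SD, n = 3 each), and in VIN7 it was 0.30 ± 1.30 at 12 °C and 0.23 ± 0.47 at 28 °C.

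**Figure D2:**
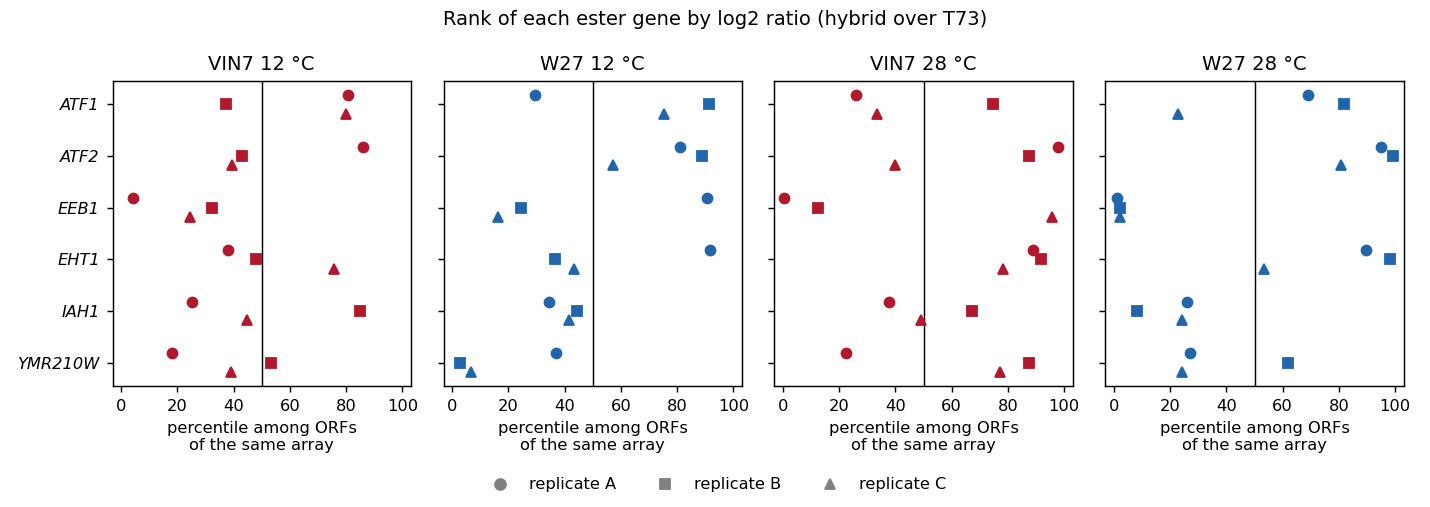
Percentile of each ester gene's log2 ratio (hybrid over T73) among all ORFs with a value on the same array (horizontal axis), for VIN7 at 12 °C, W27 at 12 °C, VIN7 at 28 °C and W27 at 28 °C, with symbols for replicates A, B and C and a line at the middle of the array. EEB1 lies between percentiles 1.06 and 2.31 on the W27 arrays at 28 °C, opposite ATF2 at 80.7 to 99.1, and the unsettled VIN7 array is shown as deposited.

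The counts by the 2-fold rule were set against those of all ORFs. In VIN7 at 28 °C, 3 of the 6 genes were counted as higher (ATF2, EHT1 and YMR210W), against 11.3% of all ORFs, and 1 as lower (EEB1), against 5.48%. With the unsettled array turned, only ATF2 was higher, against 7.12% of all ORFs, and EEB1 lower, against 5.9%. In W27 at 28 °C, 2 were higher (ATF2 and EHT1), against 7.76% of all ORFs, and EEB1 was lower, against 6.08%. Without replicate B only ATF2 and EEB1 were counted, while 365 of 6097 ORFs were higher and 432 lower. In VIN7 at 12 °C none of the genes was counted, whereas 13.9% of all ORFs were higher and 11.9% lower. In W27 at 12 °C none was higher, against 10.6% of all ORFs, and YMR210W was lower, against 11.2%. As deposited, no ester gene passed a 4-fold threshold in any group. At 12 °C 193 of 6166 ORFs were 4-fold higher and 97 lower in VIN7, and 145 and 15 of 6176 in W27. At 28 °C the counts were 87 and 33 of 6169 in VIN7 and 46 and 47 of 6171 in W27. With the unsettled array turned, EEB1 in VIN7 at 28 °C had a median 4.17-fold below T73, past this threshold.

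Agreement in sign over all 3 arrays of a group was also counted. In VIN7 at 28 °C it was found for EHT1, against 33.1% of all ORFs, and with the unsettled array turned for ATF2 and EEB1 in its place, against 25.1% of all ORFs. In W27 at 28 °C, ATF2, EEB1 and IAH1 kept their sign on all 3 arrays, against 33.6% of all ORFs. In VIN7 at 12 °C it was EEB1 alone, against 43.2% of all ORFs, and in W27 at 12 °C it was ATF2, IAH1 and YMR210W, against 47.1%.

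Tested in each group with limma, no ester gene differed from T73 at an adjusted p of 0.05, and few ORFs of any kind did. The percentage of all ORFs passing at 12 °C was 0.551% for VIN7 and 0% for W27, and at 28 °C it was 0.0162% for VIN7 and 0.0324% for W27. In W27 at 12 °C, where no ORF passed, 910 of 6176 had an unadjusted limma p under 0.05. In W27 at 28 °C the log2 ratio was 1.94 (SE 0.59) for ATF2, -2.01 (SE 0.69) for EEB1 and 1.38 (SE 0.52) for EHT1, with limma adjusted p of 0.372, 0.418 and 0.450. In VIN7 at 28 °C, EHT1 had a log2 ratio of 1.42 (SE 0.52, limma adjusted p = 0.277), which became 0.60 (limma adjusted p = 0.795) with the unsettled array turned. YMR210W in W27 at 12 °C had a log2 ratio of -1.20 (SE 0.49, limma adjusted p = 0.330), and with array weights it passed, as did 9.29% of all ORFs.

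Averaged over both hybrids at 28 °C, EEB1 lay below T73, but whether it passed the test depended on the unsettled VIN7 array. Its log2 ratio was -1.09 (SE 0.49, limma adjusted p = 0.328) as deposited. With that array turned it was -1.96 (SE 0.33, limma adjusted p = 0.0133), below T73 on 6 of 6 arrays, and without that array it was -1.78 (SE 0.35, limma adjusted p = 0.0333). ATF2 was 1.49 (SE 0.42) and EHT1 1.40 (SE 0.37), both with a limma adjusted p of 0.172. With the array turned, ATF2 was 1.56 (limma adjusted p = 0.0944), above T73 on 6 of 6 arrays, and EHT1 was 0.99 (limma adjusted p = 0.317), above T73 on 4 of 6. Across all ORFs 0.179% passed this test as deposited, 1.05% with the array turned and 0.897% without it. The 95% intervals without adjustment left out 0 for ATF2 (0.59 to 2.39), EHT1 (0.61 to 2.19) and EEB1 (-2.13 to -0.04), whereas those of ATF1, IAH1 and YMR210W held it. With the array turned the same held, with 0.68 to 2.43 for ATF2, 0.04 to 1.94 for EHT1 and -2.66 to -1.25 for EEB1.

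**Figure D3:**
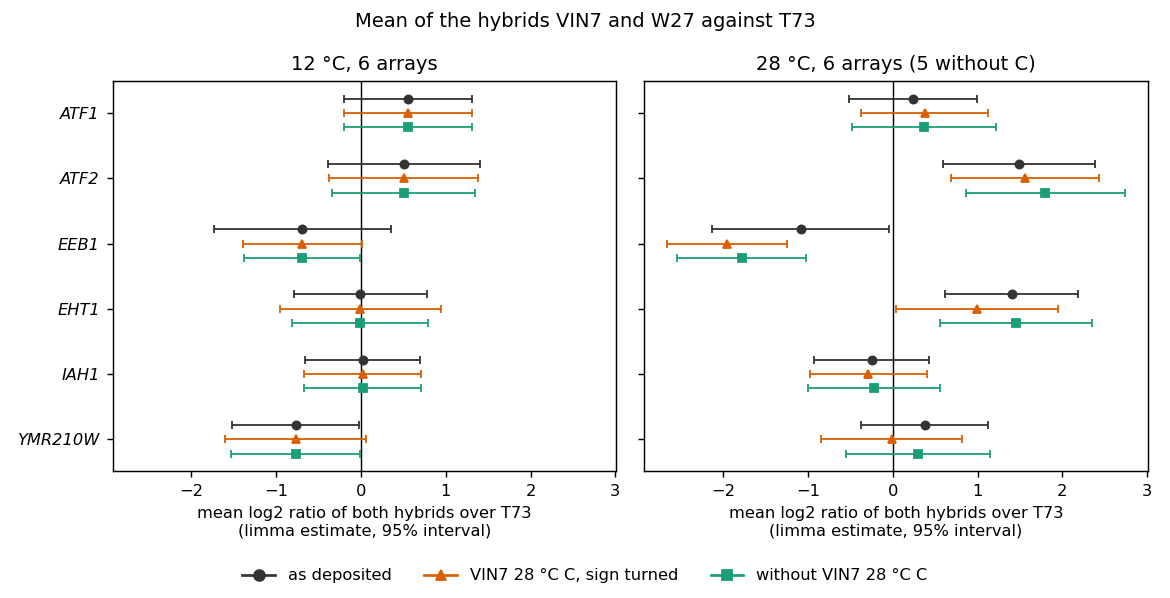
Mean log2 ratio of both hybrids over T73 (horizontal axis, limma estimate with its unadjusted 95% interval) for each ester gene at 12 °C and at 28 °C, as deposited, with the unsettled VIN7 array turned, and without it. At 28 °C EEB1 is at -1.09 as deposited, -1.96 with the array turned and -1.78 without it, while ATF2 stays between 1.49 and 1.80.

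At 12 °C, taken over both hybrids, 10.4% of all ORFs passed the same test and no ester gene did. YMR210W was nearest, with a log2 ratio of -0.77 (SE 0.35, limma adjusted p = 0.146), followed by ATF1 at 0.55 (SE 0.35, limma adjusted p = 0.289), EEB1 at -0.69 (SE 0.49, adjusted p = 0.337) and ATF2 at 0.50 (SE 0.42, adjusted p = 0.425). EHT1 and IAH1 were at -0.01 and 0.02. The passing ORFs depended on single arrays, with 643 as deposited and 0 without replicate C of W27 at 12 °C. When limma weighted the arrays by their agreement, YMR210W (-0.99, adjusted p = 0.0253) and ATF1 (0.85, adjusted p = 0.0479) passed, as did 32.2% of all ORFs, so that 2 of 6 is near the share of all ORFs.

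The hybrids were compared with each other directly. VIN7 minus W27 gave no ester gene and 0% of all ORFs past an adjusted p of 0.05 in limma, at 12 °C and at 28 °C, with 137 ORFs at 12 °C and 554 at 28 °C under an unadjusted p of 0.05. At 28 °C the difference was 1.84 for EEB1 (95% interval -0.25 to 3.93, limma adjusted p = 0.560), and it was 0.10 (-1.31 to 1.51) with the unsettled array turned and 0.45 without it. IAH1 differed by 0.97 at 28 °C (95% interval -0.38 to 2.33, limma adjusted p = 0.593), or by 0.89 with the array turned. YMR210W differed by 0.96 (-0.53 to 2.45, limma adjusted p = 0.625), and by only 0.18 (-1.48 to 1.84) with the array turned. ATF2, of which VIN7 has S. cerevisiae alleles only, differed by -0.38 at 12 °C (-2.17 to 1.41) and by -0.91 at 28 °C (-2.70 to 0.89), or -0.77 with the array turned. The intervals are wide enough to hold differences of more than 2-fold for each gene, so these data do not show that the hybrids act alike. The arrays of both hybrids did not overlap for IAH1 at 28 °C, against 13.8% of all ORFs (5.21% with the array turned, IAH1 still among them), and for no ester gene at 12 °C, against 5.92%.

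The temperatures were compared as ratios with different controls, since T73 was also grown at 12 °C and 28 °C. A difference between them may therefore come from the hybrid or from T73, and the 2 cannot be told apart. For 12 °C minus 28 °C no ester gene and 0% of all ORFs passed an adjusted p of 0.05 in limma in VIN7 or in W27, while 1214 ORFs in VIN7 and 350 in W27 had an unadjusted p under 0.05. EHT1 gave -1.43 in VIN7 (95% interval -3.01 to 0.14, limma adjusted p = 0.282) and -1.38 in W27 (-2.96 to 0.19, limma adjusted p = 0.752). The negative values mean a lower ratio at 12 °C, and with the unsettled array turned the VIN7 value was -0.61. YMR210W was at -1.19 in VIN7 (-0.42 with the array turned) and -1.10 in W27. EEB1 was at -0.78 in VIN7, or 0.96 with the array turned, and at 1.57 in W27. Values at 12 °C and 28 °C did not overlap for EHT1 in VIN7, against 20.7% of all ORFs (no ester gene and 6.7% with the array turned), and for EEB1 and IAH1 in W27, against 14.8%.

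**Figure D4:**
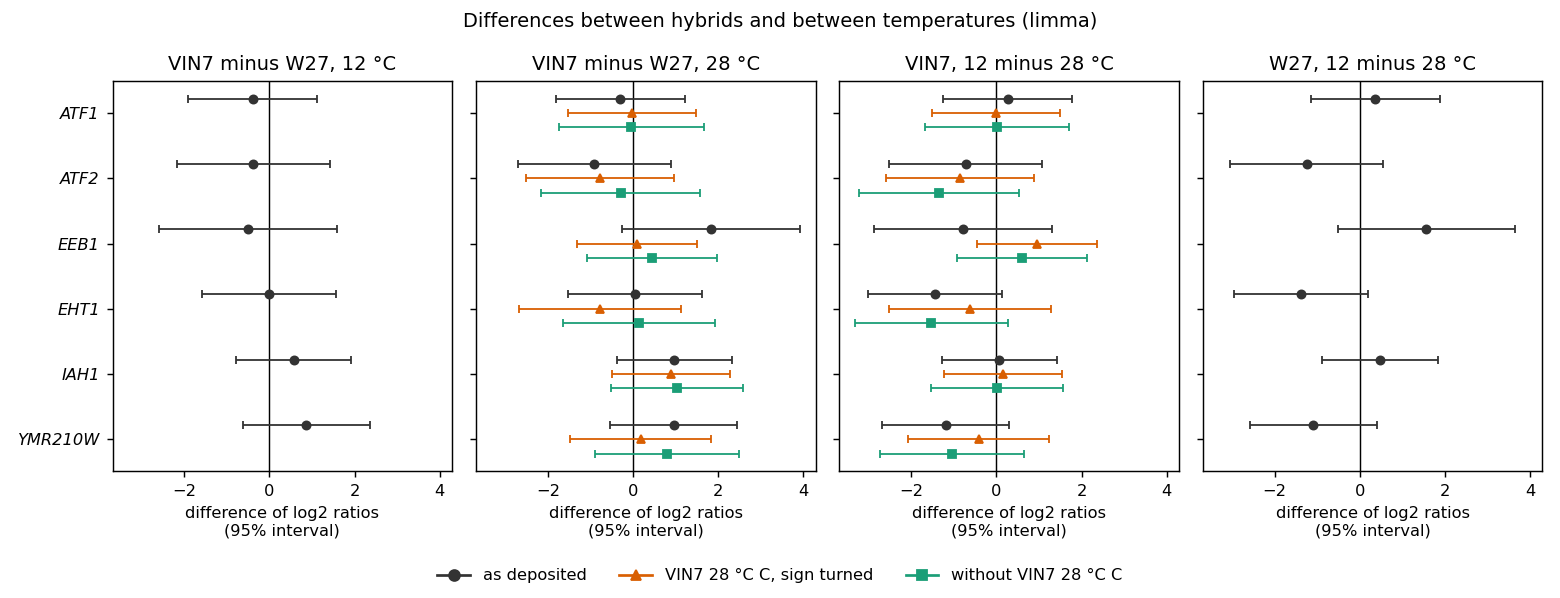
Differences of log2 ratios (horizontal axis, limma estimate with its unadjusted 95% interval) for each ester gene between VIN7 and W27 at 12 °C and at 28 °C, and between 12 °C and 28 °C in VIN7 and in W27. Comparisons that use VIN7 at 28 °C are also shown with the unsettled array turned and without it, where the EEB1 difference between the hybrids at 28 °C is 0.10 and 0.45, against 1.84 as deposited.

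The supply of substrates was described by 5 lists with 44 ORFs in all: other acetyltransferases and hydrolases of esters or acetyl groups, acetate and acetyl-CoA supply, acyl-CoA supply, higher alcohol supply and regulators. All 44 were measured in each group. In limma as deposited, 3 of the 44 fell and none rose over both hybrids at 12 °C, where 10.4% of all ORFs passed. In VIN7 at 12 °C 1 fell, against 0.551%. As deposited none passed in W27 at 12 °C, in either hybrid or both at 28 °C, between hybrids or between temperatures. With the unsettled array turned, 0 ORFs of any kind passed in either hybrid at 28 °C, between hybrids or between temperatures. Over both hybrids at 28 °C 1.05% of all ORFs passed once it was turned, and whether any of the 44 did is not given here. ALD3 (YMR169C), an aldehyde dehydrogenase gene placed in the acetate and acetyl-CoA list, had log2 ratios of -2.74, -2.71 and -3.94 in VIN7 and -2.77, -0.77 and -2.44 in W27 at 12 °C, all below T73. Its part in acetate supply was not tested. ALD3 passed in VIN7 (-3.13, SE 0.47, limma adjusted p = 0.0195) and over both hybrids (-2.56, SE 0.33, limma adjusted p = 0.00617). The others that fell over both hybrids were YGL055W (-1.89, limma adjusted p = 0.0401) and YMR246W (-1.31, limma adjusted p = 0.0416). Without replicate C of W27 at 12 °C none of the 44 passed over both hybrids, while ALD3 stayed at -2.45 (limma adjusted p = 0.0577). ALD3 in VIN7 was at -3.34 (limma adjusted p = 0.141) without replicate B of VIN7 at 12 °C, where no ORF passed, and at -3.31 (limma adjusted p = 0.126) with arrays recentred and scaled. YGL055W lay below T73 on all 3 arrays in VIN7 at 12 °C, W27 at 12 °C and W27 at 28 °C (medians -2.13, -1.66 and -2.19), as did YMR246W (-1.10, -1.18 and -2.36). In VIN7 at 28 °C YGL055W was at -0.85, -3.63 and 2.10 and YMR246W at -1.66, -2.95 and 0.38. Only the unsettled array was above T73 there, and with it turned the medians were -2.10 and -1.66.

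By the 2-fold rule the list of higher alcohol supply, 17 ORFs for the decarboxylases, aminotransferases and alcohol dehydrogenases that make the alcohols esterified by ATF1 and ATF2, held the most counts, as the longest list. At 12 °C 1 ORF was higher and 5 lower in VIN7, against 13.9% and 11.9% of all ORFs, and none was higher and 4 lower in W27, against 10.6% and 11.2%. At 28 °C 6 were higher and 2 lower in VIN7, against 11.3% and 5.48% of all ORFs, which became 2 and 4 with the unsettled array turned, against 7.12% and 5.9%. In W27 at 28 °C 2 were higher and 6 lower, against 7.76% and 6.08%. ADH1, the main alcohol dehydrogenase gene of fermentation, lay below T73 on all 3 arrays in VIN7 at 12 °C (-2.27, -2.07 and -0.38), in W27 at 12 °C (-1.21, -0.02 and -1.61) and in W27 at 28 °C (-2.08, -2.08 and -2.96). The ADH1 values of VIN7 at 28 °C were -1.41, -1.51 and 2.73, the last on the unsettled array. PDC6, a pyruvate decarboxylase gene, lay above T73 on all 3 arrays in VIN7 at 12 °C (1.22, 2.76 and 0.77), in VIN7 at 28 °C (0.88, 2.66 and 2.98 as deposited) and in W27 at 28 °C (1.48, 1.59 and 0.76). With the unsettled array turned, the values of VIN7 at 28 °C no longer shared a sign. Their median fell from 2.66 to 0.88, inside the 2-fold rule. In W27 at 28 °C PDC6 was opposite to PDC1 (-1.96, -2.90 and -1.75) and PDC5 (-1.85, -1.87 and -1.98). The hybrid VIN7 at 28 °C did not show this, with medians of 1.40 for PDC1 and 0.47 for PDC5 (-0.03 and 0.35 with the array turned).

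The highest median of this list was that of ADH4, another alcohol dehydrogenase gene, in VIN7 at 28 °C (3.03, 4.06 and 4.43, limma adjusted p = 0.109), 16.6-fold above T73, or 3.03 on the log2 scale with the array turned. ADH4 lay on both sides of T73 in W27 at 28 °C (-0.52, 0.79 and -1.64). BAT1, an aminotransferase gene for branched-chain amino acids, was at 1.40, 0.26 and 3.21 in VIN7 at 28 °C, and its median of 1.40 became 0.26 with the array turned. The other alcohol dehydrogenase genes with 1 sign on all 3 arrays and a median past 2-fold were all below T73. As deposited they were ADH2 (median -2.23) and ADH3 (-1.04) in VIN7 at 12 °C, ADH2 (-1.26) and SFA1 (-1.37) in W27 at 12 °C, and ADH2 (-2.72), ADH3 (-2.17) and ADH5 (-1.68) in W27 at 28 °C. With the unsettled array turned, ADH2 (-2.24) and ADH3 (-1.58) in VIN7 at 28 °C also had 1 sign and a median past 2-fold. None of the genes of this list passed the limma test in any group as deposited.

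The list of acyl-CoA supply, which feeds the reaction of EEB1 and EHT1, had medians of -0.58 in VIN7 at 12 °C and -0.52 in W27 at 12 °C, against 0.00 and -0.06 for all ORFs. At 28 °C its median was -0.52 in VIN7 (-0.40 with the array turned) and -0.34 in W27, against 0.10 and 0.08 for all ORFs. For acetate and acetyl-CoA supply the list median was -0.21 in VIN7 and -0.46 in W27 at 12 °C. At 28 °C it was 0.08 in VIN7, or -0.32 with the array turned, and -0.28 in W27. In this list 2 of 8 ORFs were lower in each of the 4 groups by the 2-fold rule, against the shares of all ORFs given for the higher alcohol list, from 5.48% to 11.9%. At 28 °C 1 was higher in VIN7, against 11.3% of all ORFs, and 1 in W27, against 7.76%. With the array turned 1 was higher and 3 were lower in VIN7 at 28 °C, against 7.12% and 5.9% of all ORFs. ALD3 was also below T73 on all 3 W27 arrays at 28 °C, with a median of -1.65. ALD6 in W27 at 28 °C had values of -2.07, -1.70 and -2.40, and ACS1, an acetyl-CoA synthetase gene, had -1.04, -0.13 and -1.18 in W27 at 12 °C, neither past the limma test. In the acyl-CoA list YKL182W had -1.14, -2.53 and -1.65 in W27 at 28 °C. In VIN7 at 28 °C, ALD3 (-1.37, -1.34 and 0.35), ALD6 (-2.17, -1.27 and 0.16) and YKL182W (-1.04, -1.56 and 0.44) were above T73 on the unsettled array only. Of the 5 other acetyltransferases and hydrolases, YGR212W was higher in VIN7 at 12 °C (0.67, 2.40 and 1.01) and YKL094W lower in W27 at 12 °C (-0.54, -1.46 and -2.31), 1 of 5 each, against 13.9% and 11.2% of all ORFs.

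**Figure D5:**
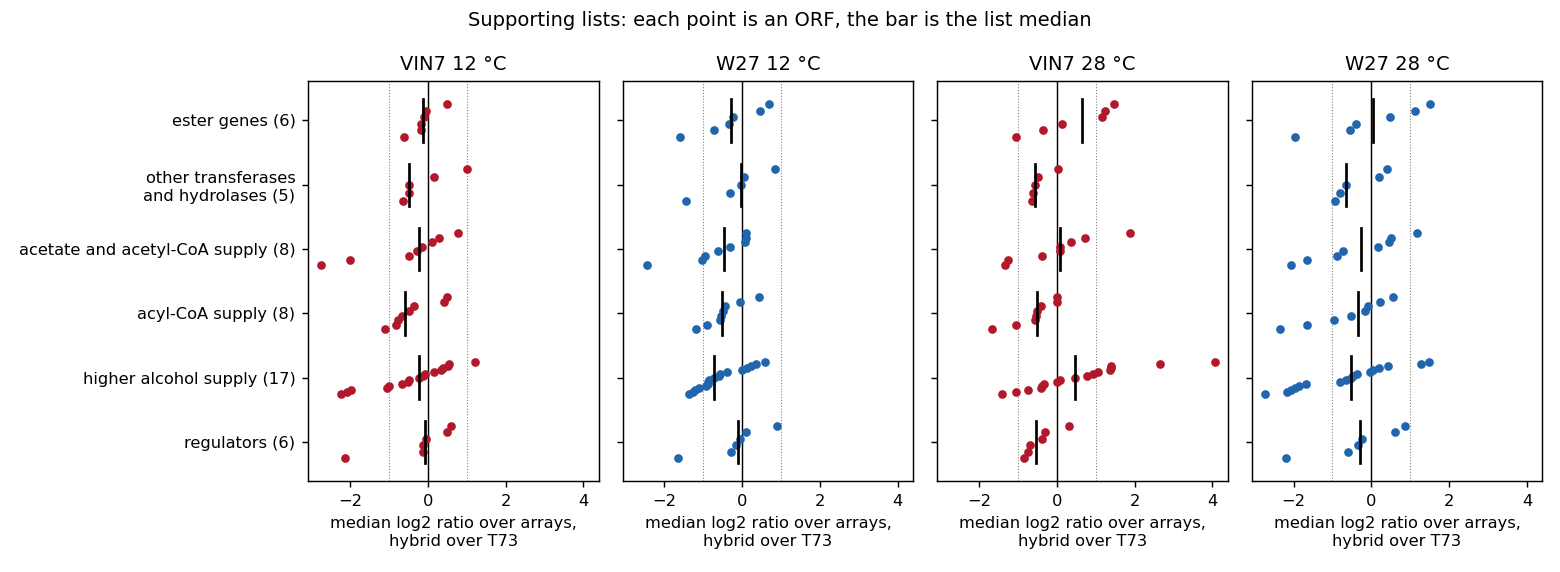
Median log2 ratio of hybrid over T73 over the arrays of a group (horizontal axis) for each ORF of the ester genes and of the 5 supporting lists, with the number of ORFs in brackets, for VIN7 at 12 °C, W27 at 12 °C, VIN7 at 28 °C and W27 at 28 °C as deposited. Black bars are list medians and dotted lines 2-fold. The 6 ester genes spread to both sides of T73 at 28 °C, while the acyl-CoA list has its median at -0.52 in VIN7 and -0.34 in W27.

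The ORFs whose ratios over the 12 arrays ran most like those of an ester gene were taken by Pearson r among the 5551 ORFs with a value on every array, as a description, since the arrays share T73 and the highest of many values is reported. YHR179W ran most like EEB1 (r = 0.96, 0.91 with arrays scaled to the same spread, where another ORF ranked first, and 0.89 with the unsettled array turned). YMR026C ran most like YMR210W (r = 0.96, 0.89 and 0.93 in the same order). Second were YOR187W for EEB1 (r = 0.93) and YGL084C for YMR210W (r = 0.95). For EHT1 the first were YFR011C (r = 0.98) and YML022W (r = 0.95), and for IAH1 YML021C and YDR233C (r = 0.91 each). For ATF1 they were YOL076W (r = 0.90) and YOR382W (r = 0.89), and for ATF2 YDR195W (r = 0.90) and YJL055W (r = 0.88). None of the first ORFs of these 4 genes stayed first in all 3 settings.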

How the data were processed

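Cells from fermentations of Tempranillo must were compared on two-colour arrays. The deposited values are log2 ratios, 1 per ORF and array, which the authors corrected for background and print-tip position and normalized array by array, without spots that the software had not located. The 2 control features were left out of all tests. Signal over background was not analysed here. Precision is limited by the number of arrays. The genome build is not given in the sources used here.

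All signs were turned to hybrid over T73. Group means, differences and means of both hybrids were fitted in limma 3.58.1 (R 4.3.3, lmFit and eBayes, all 12 arrays, Benjamini-Hochberg over all ORFs with at least 2 arrays in each group of the contrast). A test against 0 leaves out the spread of T73 itself, and both hybrids share T73. The fit was tested on simulated data with known changes. Counts, percentiles and correlations were computed with Python 3.11.15, pandas 2.3.3 and numpy 2.4.6, figures with matplotlib 3.10.9.

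Alternatives were the unsettled VIN7 array turned, recentred and scaled arrays, limits at the 0.1% and 99.9% quantiles, replicate letter as a block, a robust prior, array weights, a fit of only the arrays compared, leaving out each array, and, for the 2-fold rule, the mean, a value on all 3 arrays, 1.5-fold and 4-fold. As deposited, the replicate letters pair the VIN7 arrays across temperatures by the correlation of deviations (0.22 to 0.57 for the 3 pairs). They pair no other groups to this degree. With the unsettled array turned they do not pair the VIN7 arrays (-0.40 to 0.05). W27 at 12 °C and VIN7 at 28 °C then had 0.35, 0.06 and 0.46 for replicates A, B and C. A block in the VIN7 arrays alone, added after the data were seen, changed no call (0 ORFs passed, 1779 with an unadjusted limma p under 0.05). The members and lists were chosen with earlier results of these data known. All 6 ester genes were named, from the lists ORFs with the same sign on all 3 arrays and a median past 2-fold as deposited, and for each ester gene the 2 most alike ORFs. List symbols follow standard yeast names, as the table gives systematic names only, and list ORFs that the paper does not treat are counted or given by systematic name. No sequence was printed, and promoter motifs and protein identity were not analysed here.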

Additional observations from a re-analysis of the deposited data

How the results depend on the processing

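Of 780 values of the 6 genes under alternatives, 60 changed direction and 5 passed an adjusted p of 0.05 in limma. Many of the 780 could not change direction, so the share of 60 is no measure of stability. The robust prior, the replicate block and the fit of only the arrays compared leave the log2 ratio itself unchanged. Turning the unsettled array also leaves it unchanged where VIN7 at 28 °C is not used. The 5 that passed were EEB1 over both hybrids at 28 °C (with the unsettled VIN7 array, replicate C at 28 °C, turned and left out) and, with array weights, YMR210W in W27 at 12 °C and YMR210W and ATF1 over both hybrids at 12 °C. Of 60 gene results, 36 kept their direction under each alternative, among them ATF2 and EHT1 in both hybrids at 28 °C, EEB1 in W27 at 28 °C and YMR210W in W27 at 12 °C. The cause of the other changes was not tested.

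The number of ester genes with an adjusted p under 0.05 was 0 in each comparison as deposited. With array weights it was 1 in W27 at 12 °C, where 9.29% of all ORFs passed, and 2 over both hybrids at 12 °C, where 32.2% did, and over both hybrids at 28 °C it was 1 with the unsettled array turned and 0 to 1 when each array was left out. The number past the 2-fold rule was 4 in VIN7 at 28 °C. It became 2 with the unsettled array turned, 2 with scaled arrays, 2 with the mean in place of the median, 0 at 4-fold and 1 to 3 without each array. Of 6169 ORFs, 495 were higher and 398 lower with scaled arrays, 817 and 373 with the mean, and 87 and 33 at 4-fold. Without replicate B, which left 1 ester gene, 745 of 6137 ORFs were higher and 539 lower. Without replicate C, which left 3, the counts were 846 and 323 of 5798. With the unsettled array turned, the EEB1 median was 4.17-fold below T73, past 4-fold. In W27 at 28 °C the number was 3, against 0 at 4-fold and 2 to 3 without each array. At 4-fold 46 of 6171 ORFs were higher and 47 lower. Without replicate B, which left 2 ester genes, 365 of 6097 ORFs were higher and 432 lower. In VIN7 at 12 °C it was 0, against 1 at 1.5-fold and 0 to 1 without each array. At 1.5-fold 1531 of 6166 ORFs were higher and 1457 lower. Without replicate B 621 of 6132 ORFs were higher and 535 lower, and without replicate C 1307 and 1047 of 6062, with 1 ester gene each. In W27 at 12 °C it was 1, against 3 at 1.5-fold, 0 at 4-fold and 0 to 3 without each array.

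Recentring turned EHT1 to 0.0732 in W27 at 12 °C and 0.0299 over both hybrids at 12 °C, and ATF1 in VIN7 at 28 °C to -0.0382. Scaling turned EHT1 at 12 °C to 0.0963 in VIN7, 0.297 in W27 and 0.197 over both, and to -0.0748 for VIN7 minus W27 at 28 °C, IAH1 to -0.0466 over both at 12 °C and ATF1 to -0.116 in VIN7 at 28 °C. Array weights turned IAH1 to -0.184 in VIN7 at 12 °C, -0.225 over both at 12 °C and -0.219 for 12 °C minus 28 °C in VIN7, ATF1 to -0.119 in VIN7 at 28 °C, YMR210W to -0.038 over both at 28 °C, and EHT1 to 0.0306 and -0.00169 for VIN7 minus W27 at 12 °C and at 28 °C. Turning the unsettled array gave YMR210W -0.015 over both at 28 °C, EHT1 -0.771 for VIN7 minus W27 at 28 °C, and ATF1 -0.009 and EEB1 0.96 for 12 °C minus 28 °C in VIN7, the same with a replicate block in the VIN7 arrays alone.

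Without each array in turn, the following crossed 0. ATF1 ranged from -0.388 to 0.344 in VIN7 at 28 °C, from -0.0605 to 0.868 in W27 at 28 °C and from -0.00258 to 0.479 over both at 28 °C. For VIN7 minus W27 it ranged from -0.882 to 0.133 at 12 °C and from -0.777 to 0.15 at 28 °C, and for 12 °C minus 28 °C from -0.0745 to 0.747 in VIN7 and from -0.155 to 0.859 in W27. ATF2 ranged from -0.2 to 0.584 in VIN7 at 12 °C and from -0.892 to 0.0383 for VIN7 minus W27 at 12 °C. EEB1 ranged from -1.56 to 0.78 in VIN7 at 28 °C, from -0.936 to 0.0627 for VIN7 minus W27 at 12 °C and from -1.73 to 0.609 for 12 °C minus 28 °C in VIN7. EHT1 ranged at 12 °C from -0.214 to 0.173 in VIN7 and from -0.378 to 0.204 in W27, from -0.194 to 0.0976 over both at 12 °C, and for VIN7 minus W27 from -0.214 to 0.369 at 12 °C and from -0.661 to 0.881 at 28 °C. IAH1 ranged from -0.422 to 0.835 in VIN7 at 12 °C, from -0.025 to 0.438 in VIN7 at 28 °C, from -0.343 to 0.286 over both at 12 °C, from -0.16 to 1.1 for VIN7 minus W27 at 12 °C and from -0.657 to 0.6 for 12 °C minus 28 °C in VIN7. YMR210W ranged from -0.469 to 0.118 in W27 at 28 °C.

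Over all ORFs, the calls for both hybrids ranged from 0 to 1985 at 12 °C (643 as deposited) and from 2 to 66 at 28 °C (11 as deposited). In single groups they ranged from 0 to 200 in VIN7 at 12 °C (34 as deposited), from 0 to 574 in W27 at 12 °C (0 as deposited) and from 0 to 95 in W27 at 28 °C (2 as deposited). Of 18 same-letter pairs of arrays, 6 had a correlation of deviations over 0.1 as deposited, 3 of them the VIN7 pairs across temperatures. With the replicate block no ester gene passed (0 in each comparison, ATF2 over both hybrids at 28 °C at an adjusted p of 0.109 in limma), and 655 ORFs passed over both hybrids at 12 °C and 6 at 28 °C. For 12 °C minus 28 °C in VIN7 the block gave 1 ORF over all arrays, against 0 without it and 0 with the block in the VIN7 arrays alone.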

Other observations

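The table also held 2 control features that are no yeast ORFs, each with 1 value per array. As hybrid over T73, the feature named 3XSSC, after a salt buffer, lay below 0 on all 6 VIN7 arrays. Its range was -1.17 to -0.51 at 12 °C and -1.97 to -0.81 at 28 °C, where the unsettled array would be at 1.25 once turned. Its range on the W27 arrays was -0.63 to 1.10 at 12 °C and -1.61 to 1.16 at 28 °C. The feature named Arabidopsis ranged from 0.64 to 1.57 for VIN7 and from -0.14 to 2.504 for W27 at 12 °C. At 28 °C its range was -1.496 to 0.28 for VIN7 (-0.61 to 1.496 with the unsettled array turned) and -0.63 to 0.81 for W27. Their part in the ratios of the ester genes was not tested.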
